A study of Mus musculus with 8 samples.

Results

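The genes of oxidative phosphorylation were followed in mouse crypt cells of the intestine, from the crypt base upwards. They were all genes named alone by a non-control probe set whose symbol begins with Nduf, Uqcr, Atp5 or Cox4 to Cox8, or is Sdha, Sdhb, Sdhc, Sdhd, Cyc1 or Cycs. The rule found 184 probe sets for 92 genes, of 18193 genes measured, and each gene was read from its probe set with the highest mean over the 6 EphB2 arrays. These 92 genes were 84 subunits or electron carriers (34 of complex I, 4 of complex II, 9 of complex III, 1 cytochrome c, 19 of complex IV and 17 of complex V) and 8 assembly factors of complex I, which help to build the complex but are not part of it. Ndufa4 and Ndufa4l2, named after complex I, were placed with complex IV, where the Ndufa4 protein is now known to sit. A further 10 probe sets that name a member together with another gene were left out by the rule.

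Crypt cells of C57BL/6 mice had been sorted by the amount of the receptor EphB2 at their surface into EphB2 High, EphB2 Medium and EphB2 Low cells, with 2 arrays per group. EphB2 is highest at the crypt base, where stem cells lie, and falls towards the villus. Each EphB2 group had 1 array in a first and 1 in a second hybridization. A separate hybridization held 1 array of Lgr5 High and 1 of Lgr5 Low cells, sorted by green fluorescence in mice that carry an Lgr5-EGFP knock-in allele, in which the reporter marks cells that use the stem cell gene Lgr5. In every group RNA came from dissociated, sorted cells and was amplified isothermally before labelling, and the sources used here give neither age, sex nor how many animals stood behind an array. Nothing says that replicate arrays came from separate mice, so the p-values cover array-to-array spread that may be technical only.

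Complexes I to IV form the respiratory chain of the inner mitochondrial membrane. Complex I takes electrons from NADH and complex II from succinate, both pass them through ubiquinone to complex III, and cytochrome c carries them to complex IV, which reduces oxygen. The proton gradient built on the way drives complex V, the ATP synthase. Several small subunits of complex IV come in isoforms, one used in most tissues and another known chiefly from heart and skeletal muscle or from testis.

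The strongest contrasts lay between such isoforms, Cox7a1 with Cox7a2 and Cox6b2 with Cox6b1, and among the assembly factors. The promoters of these isoform pairs are therefore shown, with that of Ndufaf4, the only assembly factor whose promoter held a match to the nuclear respiratory factor motif (chosen for that match). The 250 bases before each start come from RefSeq, build GRCm38.p6, and are written 5′ to 3′ on the gene's strand, with motif matches in capitals. They lie at chr7:30183921-30184170 (plus strand, Cox7a1), chr9:79759854-79760103 (minus strand, Cox7a2), chr7:4753095-4753344 (minus strand, Cox6b2), chr7:30626115-30626364 (minus strand, Cox6b1) and chr4:24897833-24898082 (plus strand, Ndufaf4).
Cox7a1: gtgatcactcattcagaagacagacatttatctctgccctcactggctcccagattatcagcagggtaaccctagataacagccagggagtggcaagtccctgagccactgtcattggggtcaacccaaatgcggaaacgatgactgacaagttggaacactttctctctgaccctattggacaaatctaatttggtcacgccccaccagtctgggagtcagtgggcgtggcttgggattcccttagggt
Cox7a2: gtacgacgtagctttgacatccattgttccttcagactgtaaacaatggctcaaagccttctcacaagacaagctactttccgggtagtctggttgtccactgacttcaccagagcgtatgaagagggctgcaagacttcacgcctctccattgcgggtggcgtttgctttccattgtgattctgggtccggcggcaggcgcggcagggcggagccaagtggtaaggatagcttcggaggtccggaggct
Cox6b2: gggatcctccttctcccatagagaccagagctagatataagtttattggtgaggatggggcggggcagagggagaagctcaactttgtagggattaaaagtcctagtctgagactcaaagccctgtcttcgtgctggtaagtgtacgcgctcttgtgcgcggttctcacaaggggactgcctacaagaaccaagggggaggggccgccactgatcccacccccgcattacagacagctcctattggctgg
Cox6b1: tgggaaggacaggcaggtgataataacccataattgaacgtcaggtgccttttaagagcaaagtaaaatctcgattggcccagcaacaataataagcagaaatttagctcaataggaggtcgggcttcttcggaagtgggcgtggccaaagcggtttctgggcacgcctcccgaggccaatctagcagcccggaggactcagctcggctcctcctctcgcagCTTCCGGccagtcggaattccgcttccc
Ndufaf4: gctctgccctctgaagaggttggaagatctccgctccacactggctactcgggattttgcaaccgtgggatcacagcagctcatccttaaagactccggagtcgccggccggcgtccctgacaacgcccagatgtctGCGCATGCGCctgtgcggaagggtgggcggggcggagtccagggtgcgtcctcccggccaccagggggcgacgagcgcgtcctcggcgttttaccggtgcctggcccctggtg

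Of the members, 68 of 84 subunits and 7 of 8 assembly factors had an entry in that promoter table. Shares below are shares of genes, and a gene with several starts counted as a match if any of them matched. The motifs searched, on both strands and with none contained in another, were the nuclear respiratory factor 1 (NRF1) site GCGCATGCG, the ETS site CCGGAAG bound by factors such as GABP, the cyclic AMP response element TGACGTCA, the E-box CACGTG and the TATA box TATAAA. These were picked with the data in hand, and a longer form of the NRF1 site was searched first and shortened after its result was seen. The shorter form printed here matches more subunit promoters and more promoters overall than the longer one did. The NRF1 letters stood before 6 subunit genes (8.82%, Atp5g2, Atp5k, Atp5l, Cox6a1, Cycs and Ndufa8) and 1 assembly factor gene (14.3%), against 1.64% of all 27025 genes with an entry. The ETS letters stood before 17.6% of subunit genes, 28.6% of assembly factor genes and 7.83% of all. The cyclic AMP response element stood before 5.88% of subunit genes (Cycs, Ndufa10, Ndufb2 and Uqcrfs1) and 1.77% of all. Shares for the E-box were 8.82% of subunit genes and 6.86% of all, and those for the TATA box 10.3% and 14.3%. In the printed set only Cox6b1 (ETS) and Ndufaf4 (NRF1) held a match to any of the 5. A match describes the letters in this window and not a bound site.

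The deposited values were log2 intensities with array medians of 6.12 to 6.20. Genes of the epithelium averaged 12.9 to 13.6 per array, while averages were 4.74 to 5.07 for lymphocyte genes, 4.77 to 5.21 for myeloid genes, 4.41 to 4.82 for stromal and endothelial genes, 4.46 to 4.81 for muscle genes and 3.32 to 3.74 for red blood cell genes. Cell type markers moved strongly with the sort. All 7 measured enterocyte genes fell between EphB2 Low and High (median -2.71), and all 5 crypt base genes (median 2.48) and 3 cycling genes (median 1.59) rose. Of 3 measured Paneth cell genes 2 rose. Among 7 epithelial genes 1 rose and 2 fell, 1 of 7 lymphocyte and 1 of 6 myeloid genes rose, and 1 of 6 muscle genes fell. Of 7 stromal and endothelial and 2 red blood cell genes limma called 0. Among all genes 22.0% rose and 15.3% fell. The calls in the epithelial, lymphocyte, myeloid and muscle lists are therefore single values and not a result about a cell type. The part of cell composition in the results that follow was not tested, and in sorted bulk cells a change in cell types and a change in RNA per cell cannot be told apart. As a measure of RNA quality, the 3′ probe set minus the 5′ probe set was 0.76 to 0.90 for Gapdh and 0.52 to 0.80 for Actb. EphB2 High and Low overlapped on both, while for Actb the Lgr5 arrays, at 0.52 and 0.53, lay below all 6 EphB2 arrays (0.59 to 0.80).

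Between EphB2 High and EphB2 Low cells the subunits were nearly level on their brightest probe sets, with a few exceptions. Their median difference was -0.11 on the log2 scale (all genes 0.01), 81 of 84 lay within 0.5 of 0, and the median was -0.08 in the first and -0.14 in the second hybridization. It was -0.16 as the mean of all probe sets of a gene, and 33 further probe sets with a mean level below 11 had a median of -0.40. Only 13 of 92 members passed the test (limma, Benjamini-Hochberg adjusted p below 0.05 over all genes), 14.1% against 37.3% of all genes. Among subunits 2 rose and 6 fell, where 22.0% of all genes rose and 15.3% fell, and 5 of 8 assembly factors rose and 0 fell (0 of 8 were lower at an unadjusted p below 0.05 either). Small differences pointed one way: 70 of 84 subunits were below 0 (49.2% of all genes), and in 54 both High arrays lay below both Low arrays (31.7% of all genes), while in 7 they lay above (36.4%). In both hybridizations 41 subunits were ordered High below Medium below Low (17.9% of all genes) and 4 the other way (24.3%). Most subunits were bright: 50 of 84 had a mean above 13, as did 2.29% of all genes. Of non-control probe sets, 1.719% and 1.725% lay above 13 on the High arrays, and 1.814% and 1.932% on Low. What part signal level has in these counts was not tested. The count of 13 called members moved with single arrays, and with any 1 left out fewer of all genes passed too. Leaving out EphB2 High replicate 1 gave 6 and replicate 2 gave 4, leaving out EphB2 Low replicates 1 and 2 gave 6 and 5, and leaving out either EphB2 Medium array gave 8. The 6 subunits that fell became 1 to 3 with 1 array left out. The 5 assembly factors that rose became 2 without either High array, 3 without EphB2 Low replicate 2 and 4 when any 1 of the remaining arrays was left out. With a prior variance that follows intensity (the trend option of limma's eBayes) it was 27, with 20 subunits lower and 2 higher, where 16.7% of all genes were lower. With the arrays quantile normalized again 7 members rose and 2 fell.

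**Figure D1:**
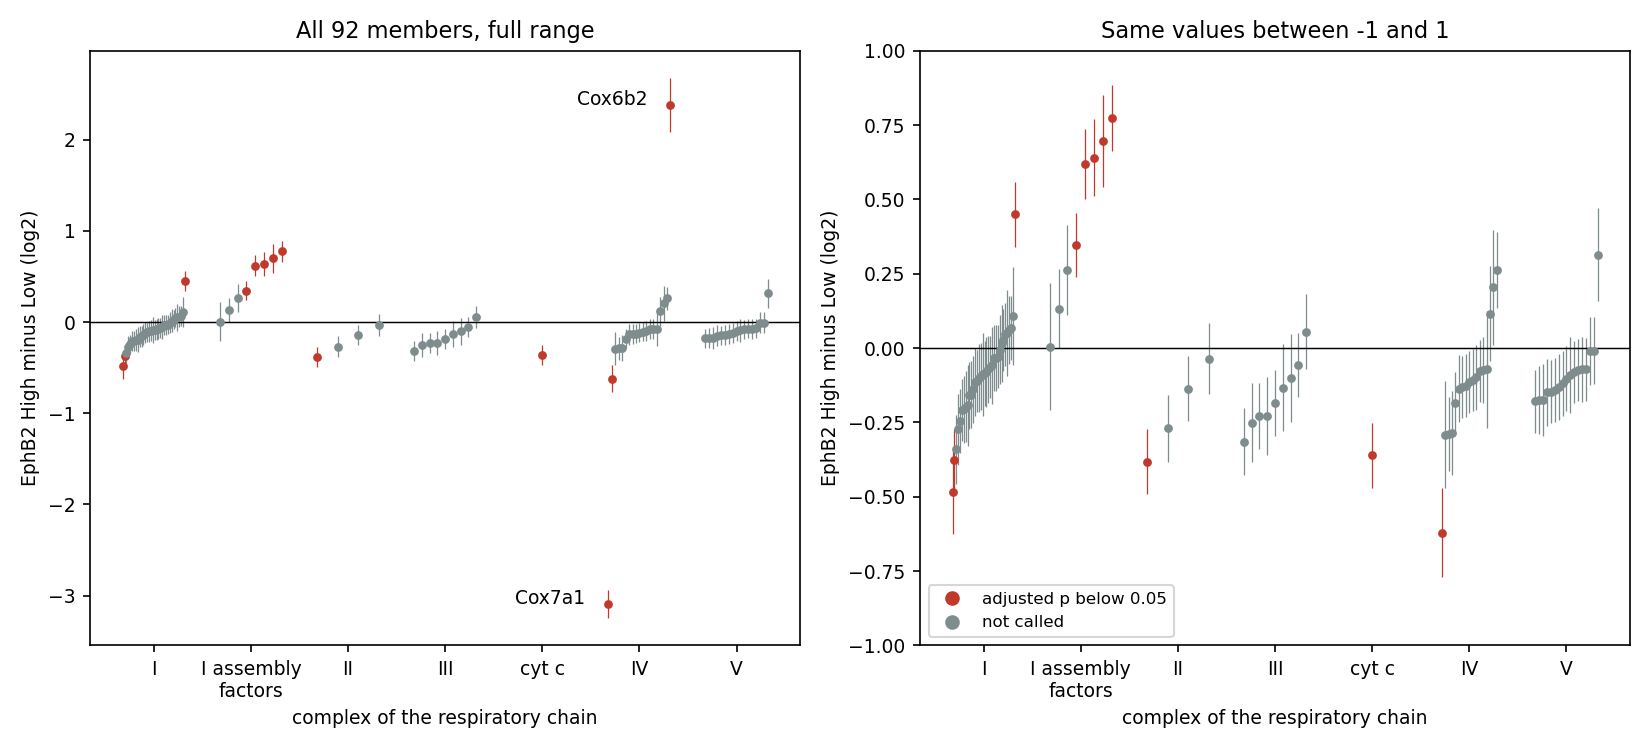
Difference between EphB2 High and EphB2 Low (log2, y axis) for each of the 92 members by complex (x axis), with bars of 1 standard error from limma, n = 2 arrays per group, and members that passed the test in red. The left panel shows Cox7a1 at -3.09 and Cox6b2 at 2.38 far from the others; the right panel enlarges the range from -1 to 1, where most subunits lie just below 0 and the called assembly factors above it.

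Complex IV held the members that moved most, both of them isoforms of tissues other than the gut. Cox7a1, the heart and skeletal muscle form of subunit 7a, stood at 12.41 and 12.68 on the EphB2 Low arrays, 11.01 and 10.96 on Medium and 9.59 and 9.31 on High. The groups did not overlap, and each step of the sort took the signal down. Cox7a1 thus fell by 3.09 from Low to High (SE 0.16, n = 2 per group, 8.54-fold, limma adjusted p = 0.000222), with -2.82 and -3.37 within the hybridizations. It fell by 1.56 from Low to Medium (SE 0.16, limma adjusted p = 0.00373) and by 1.53 from Medium to High (SE 0.16, limma adjusted p = 0.0197). The last call was lost without either High or either Medium array (adjusted p up to 0.145), whereas the calls against Low held under all 12 alternatives. Muscle genes were near the floor of the arrays: their average ran from 4.46 to 4.81, and Ckm, muscle creatine kinase, was the 1 of 6 that fell, staying below 5 on every array.

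Cox6b2, the testis form of subunit 6b, ran the opposite way. Its levels were 8.78 and 7.88 on the Low arrays, 9.71 and 9.78 on Medium, and 10.58 and 10.86 on High. No 2 groups overlapped, and the Low arrays differed from each other more than those of any other group. Cox6b2 rose by 2.38 ± 0.30 from Low to High (SE, n = 2 per group, 5.22-fold, limma adjusted p = 0.00227), a call kept under all 12 alternatives (1.94 to 2.83). From Low to Medium it rose by 1.42 ± 0.30 (limma adjusted p = 0.0208), a call lost without either Medium array (adjusted p up to 0.0969), and from Medium to High the difference was 0.97 ± 0.30 (limma adjusted p = 0.223).

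Cox6a2, the heart and muscle form of subunit 6a, fell as well, on a dim probe set. It read 6.88 and 6.94 on Low, 6.56 and 6.29 on Medium, and 6.40 and 6.17 on High, all under the median over genes of 7.89. High and Low did not overlap, and the difference was -0.62 ± 0.15 (limma adjusted p = 0.0214). Dropping EphB2 High replicate 2 or either Low array ended that call (adjusted p up to 0.119). The remaining tissue isoforms did not pass: Cox4i2, a form known from lung, was at 0.12 ± 0.16, Cox8b, the heart and muscle form of subunit 8, at -0.14 ± 0.11, Cox8c, its testis form, at -0.07 ± 0.20, Cox7b2 at 0.20 ± 0.19 and the hypoxia-induced Ndufa4l2 at -0.29 ± 0.18. All 5 were dim, with array levels between 2.19 and 5.68. Cox7b2 had opposite signs in the hybridizations, 0.59 and -0.18.

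The common forms of the same subunits were bright and, on their brightest probe sets, nearly flat. Cox7a2 was at 14.19 and 14.22 on Low and 14.12 and 14.08 on High (-0.11 ± 0.11, limma adjusted p = 0.487). Cox6b1 read 14.22 on both Low arrays and 14.09 and 14.12 on High (-0.12 ± 0.10, limma adjusted p = 0.451). For each of these, High lay just below Low without overlap, by a difference that did not pass. Cox6a1 differed by -0.29 ± 0.14, Cox4i1 by -0.13 ± 0.11, Cox8a by -0.07 ± 0.11 and Ndufa4 by -0.08 ± 0.11. Further probe sets of Cox7a2 and Cox6b1 differed by -0.13 and -0.16. Those of Cox8a differed by -0.09, with overlap, and by -0.85, without overlap, on a dim probe set. The largest differences among further probe sets of Cox5b and Cox5a were -0.89 and -0.42, both without overlap. All 10 ubiquitous subunits of complex IV were below 0 (49.2% of all genes), with a median of -0.12. Of them limma called 0, against 37.3% of all genes (0 at an unadjusted p below 0.05). Under the trend option Cox5a, Cox5b and Cox6a1 passed as lower. Cox7a2l is described as linking complexes III and IV into supercomplexes, a role not measured in these mice. It was at 12.85 and 12.74 on Low and 13.08 and 13.03 on High. Cox7a2l did not pass (0.26 ± 0.13, limma adjusted p = 0.168), but did with the trend option (0.0435).

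**Figure D2:**
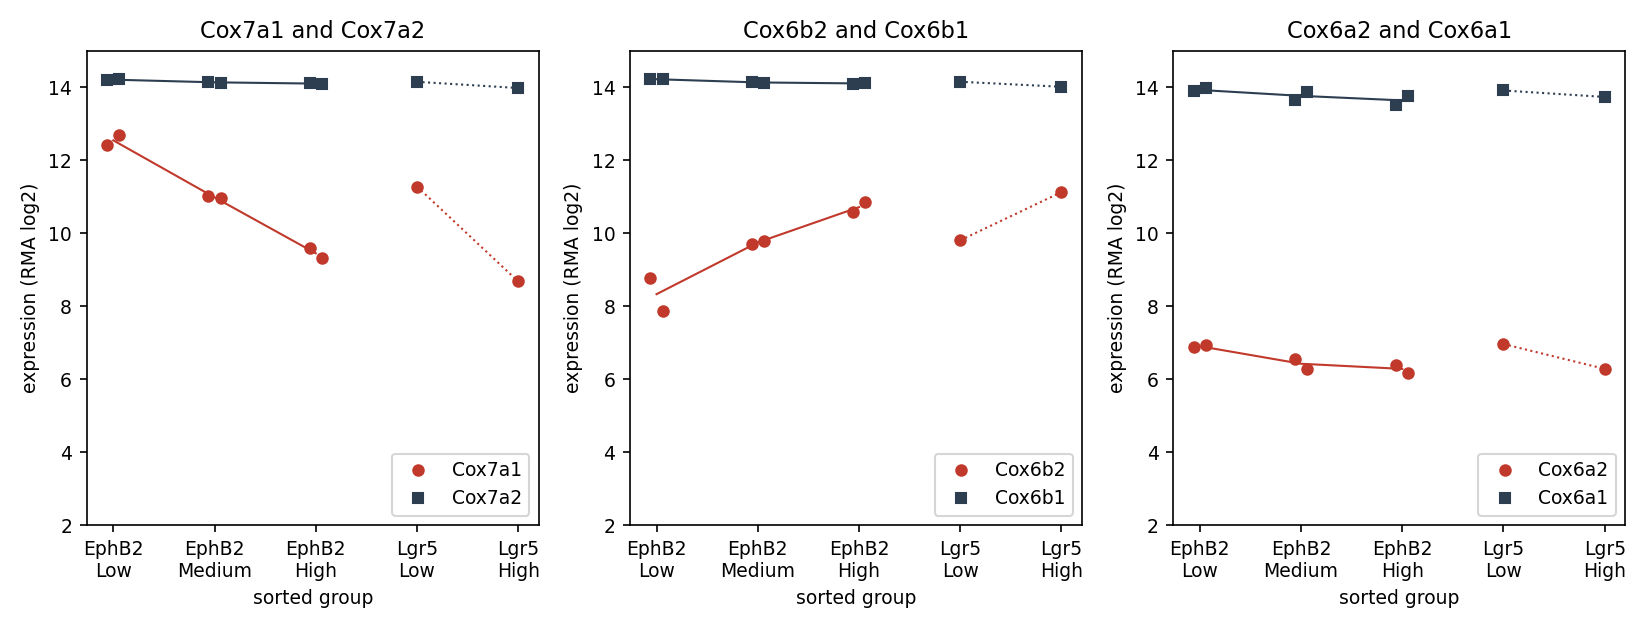
Expression (RMA log2, y axis) on each of the 8 arrays by sorted group (x axis) for Cox7a1 and Cox7a2, Cox6b2 and Cox6b1, and Cox6a2 and Cox6a1; lines join group means, dotted for the Lgr5 pair with 1 array per group. Cox7a1 goes from 12.41 and 12.68 on Low to 9.59 and 9.31 on High and Cox6b2 from 8.78 and 7.88 to 10.58 and 10.86, while Cox7a2 and Cox6b1 stay near 14; heights of different genes are not comparable.

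Complex I subunits had a median difference of -0.09, which was -0.03 for the 6 core subunits that carry its flavin and iron-sulfur centres or bind ubiquinone and -0.10 for 28 accessory subunits. Of the core limma called 0, against 37.3% of all genes (0 at an unadjusted p below 0.05). Differences of the core ran from -0.12 (Ndufs1) to 0.06 (Ndufs8). Among accessory subunits 2 fell and 1 rose, where 15.3% of all genes fell and 22.0% rose. Ndufa1, a small membrane subunit needed for assembly, read 12.65 and 12.71 on Low, 12.43 and 12.26 on Medium, and 12.34 and 12.05 on High. High and Low did not overlap (-0.48 ± 0.14, limma adjusted p = 0.0429). Ndufs5 was at 12.25 and 12.27 on Low, 12.04 on both Medium arrays, and 11.87 and 11.89 on High, the tightest spread of the called subunits of complex I, with a difference of -0.38 ± 0.10 (limma adjusted p = 0.0346). The call of Ndufs5 was lost whichever array was left out, that of Ndufa1 whichever but EphB2 High replicate 1, and both with quantile normalization (adjusted p up to 0.136 and 0.205).

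Ndufb1 was the subunit of complex I that rose, again on a dim probe set. Its levels were 7.26 and 7.33 on Low, 7.71 and 7.60 on Medium, and 7.75 and 7.74 on High, so that Medium lay with High and apart from Low. The difference was 0.45 ± 0.11 (limma adjusted p = 0.0233), lost without either High or either Low array and with the trend option (adjusted p up to 0.102). Other accessory subunits did not pass, Ndufa6 coming closest (-0.34 ± 0.12, limma adjusted p = 0.0654). The trend option called 7 complex I subunits lower (Ndufa1, Ndufa6, Ndufb6, Ndufb7, Ndufb9, Ndufb10 and Ndufs5) and none higher, as Ndufb1 no longer passed. With that option 16.7% of all genes were lower.

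Of the 8 assembly factors of complex I 5 rose, where 22.0% of all genes did. In 7 of 8, Ndufaf8 being the exception, both High arrays lay above both Low arrays (36.4% of all genes), and the median difference of the 8 was 0.48 (0.47 and 0.47 within the hybridizations). Ndufaf6, which acts early in assembly, read 9.20 and 9.06 on Low, 9.74 and 9.70 on Medium, and 9.90 and 9.91 on High, and rose by 0.77 ± 0.11 (1.71-fold, limma adjusted p = 0.00361), a call kept under all 12 alternatives. Ndufaf2, a relative of the subunit Ndufa12 that binds a late intermediate, was at 10.81 and 10.54 on Low, 11.27 and 11.05 on Medium, and 11.46 and 11.29 on High. It rose by 0.70 ± 0.15 (limma adjusted p = 0.0161), a call lost without either High array or EphB2 Low replicate 2 (adjusted p up to 0.0872).

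A pair of factors that are enzymes rose as well. Ndufaf7, a methyltransferase, read 10.31 and 10.35 on Low, 10.86 and 10.90 on Medium, and 10.84 and 11.10 on High (0.64 ± 0.13, limma adjusted p = 0.0117; 0.0694 without EphB2 High replicate 2). Ndufaf5, which hydroxylates Ndufs7, read 10.38 and 10.23 on Low, 10.77 and 10.71 on Medium, and 10.96 and 10.89 on High (0.62 ± 0.12, limma adjusted p = 0.00892; 0.0555 without EphB2 High replicate 1). For both, Medium already stood apart from Low. Ndufaf8, the partner of Ndufaf5, did not move with it: its levels of 11.94 and 11.59 on Low and 11.98 and 11.56 on High differed more between hybridizations than between groups (0.00 ± 0.21, limma adjusted p = 0.991).

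Ndufaf4 lay just inside the threshold on its brightest probe set. It was at 11.26 and 11.29 on Low, 11.69 and 11.72 on Medium, and 11.66 and 11.58 on High, with Medium highest. The High minus Low difference was 0.35 ± 0.11 (limma adjusted p = 0.04995), lost whichever array was left out and with each array centred on its median (adjusted p up to 0.197). The other probe set of Ndufaf4 differed by 0.45 (0.36 and 0.55 within the hybridizations), with High above Low without overlap. Ndufaf3, which works with Ndufaf4, did not pass (0.13 ± 0.13), and neither did Ndufaf1, a factor of the membrane arm (0.26 ± 0.15).

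**Figure D3:**
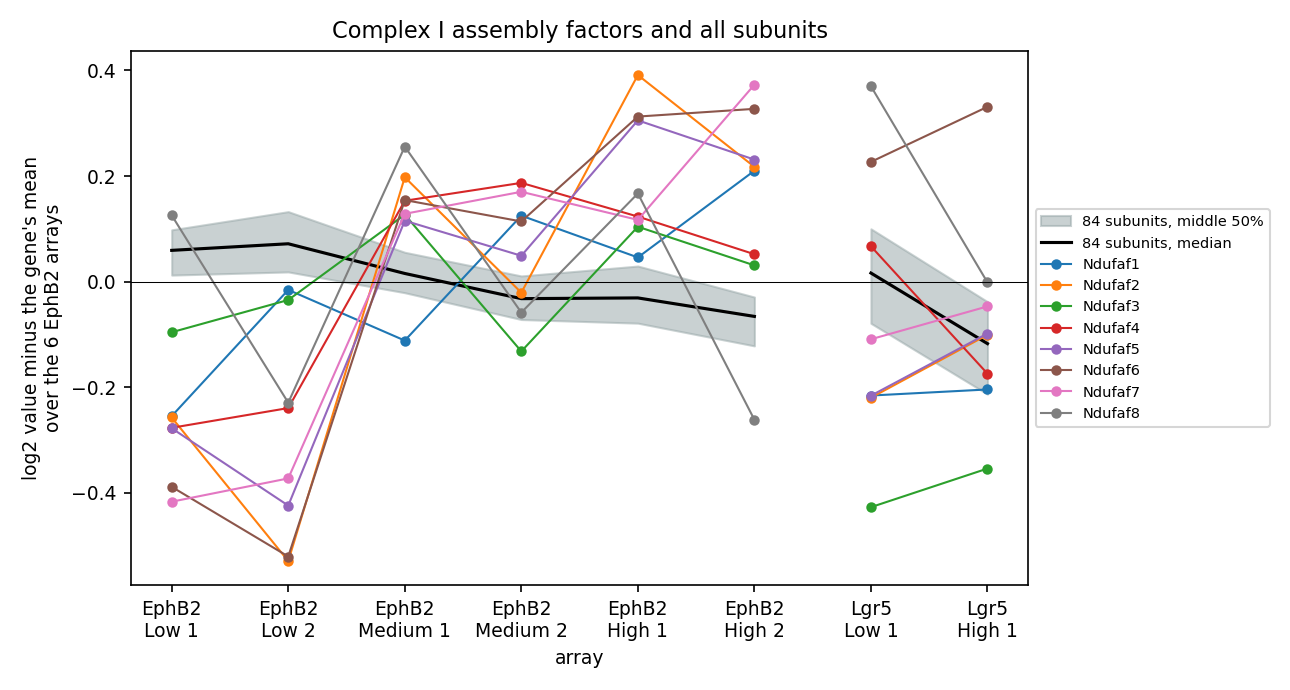
Log2 value minus the gene's own mean over the 6 EphB2 arrays (y axis) on each of the 8 arrays (x axis), for the 8 assembly factors (coloured lines) and for the subunits (black line, median; grey band, middle 50% of the 84). The subunit median goes from 0.06 and 0.07 on the Low arrays to -0.03 and -0.07 on High, and the median of the assembly factors from -0.27 and -0.31 to 0.15 and 0.21.

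All 4 subunits of complex II, succinate dehydrogenase, were below 0 (49.2% of all genes), with a median of -0.20. Of these 1 fell, where 15.3% of all genes did. Sdhb, the iron-sulfur subunit, read 13.52 and 13.60 on Low, 13.32 and 13.35 on Medium, and 13.23 and 13.13 on High. The groups did not overlap and Sdhb fell by 0.38 (SE 0.11, limma adjusted p = 0.0397). Its flavin-bearing partner Sdha overlapped between High and Low on its brightest probe set (-0.04 ± 0.12), although its other 3 probe sets were lower in High without overlap (-0.17, -0.72 and -0.54), and the membrane anchors Sdhc (-0.14 ± 0.11) and Sdhd (-0.27 ± 0.11, limma adjusted p = 0.12) did not pass. Cytochrome c, encoded by Cycs, read 13.61 on both Low arrays, 13.46 and 13.44 on Medium, and 13.30 and 13.19 on High, again without overlap. On this, its brightest probe set, Cycs fell by 0.36 (SE 0.11, limma adjusted p = 0.0458). Its further probe sets were also lower in High without overlap (-0.57, -0.60 and -1.13). Neither Sdhb nor Cycs kept its call when any 1 array was dropped, or with quantile normalization (adjusted p up to 0.184 and 0.208), and adjusted p was 0.0017 and 0.00176 with the trend option.

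In complex III, which passes electrons from ubiquinol to cytochrome c, 8 of 9 subunits were below 0 (49.2% of all genes), with a median of -0.19. Here limma called 0, against 37.3% of all genes (1 at an unadjusted p below 0.05). That 1 was Uqcrfs1, the Rieske iron-sulfur protein, at 13.18 and 13.29 on Low, 13.03 and 13.12 on Medium, and 12.91 and 12.93 on High (-0.32 ± 0.11, limma adjusted p = 0.0762). Cytochrome c1, encoded by Cyc1, had its groups in the same order with a smaller difference (-0.23 ± 0.11, limma adjusted p = 0.168). With the trend option Uqcrfs1, Cyc1 and Uqcrc1 passed as lower. Uqcr10 was at 0.06 ± 0.13 on its brightest probe set, but its other two probe sets were lower in High without overlap (-0.42 and -0.69).

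In complex V, the ATP synthase, no subunit passed. Of its 17 subunits 16 were below 0 (49.2% of all genes), with a median of -0.10. Here limma called 0, against 37.3% of all genes (0 at an unadjusted p below 0.05). Atp5a1 differed by -0.07 ± 0.10 and Atp5b by -0.07 ± 0.11. The c ring, through which protons pass, is made of 1 protein encoded by 3 genes, and limma called 0 of them: Atp5g1 differed by -0.01 ± 0.11, Atp5g3 by -0.18 ± 0.11 and Atp5g2 by 0.31 ± 0.16. Atp5g2 read 12.77 and 12.60 on Low, 13.02 and 12.71 on Medium, and 13.08 and 12.91 on High, without overlap between High and Low, but did not pass (limma adjusted p = 0.18). With the trend option Atp5g3 and Atp5o, a stalk subunit, passed as lower.

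**Figure D4:**
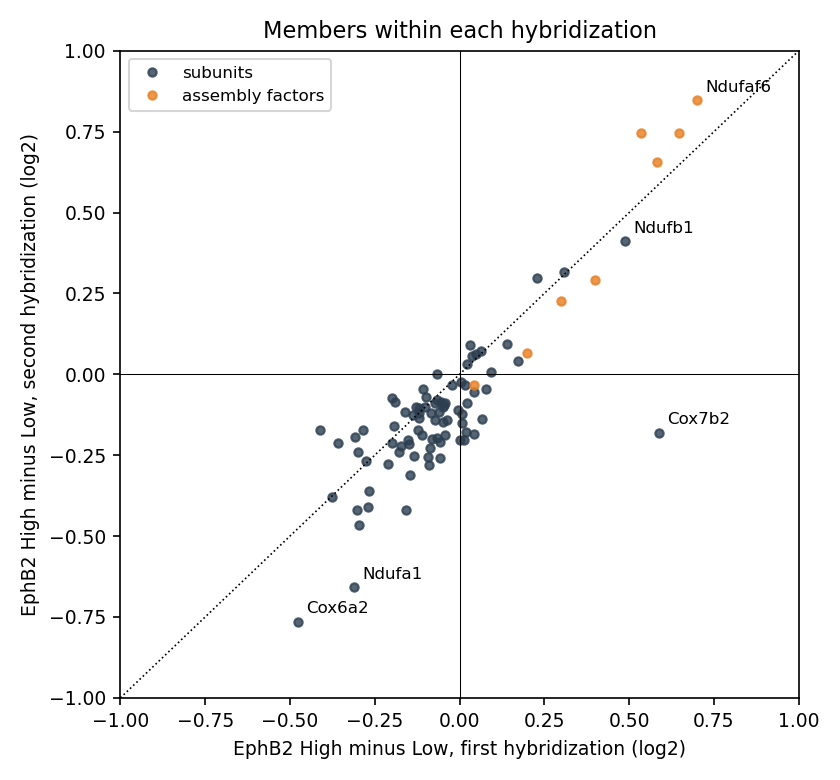
EphB2 High minus Low (log2) of each member in the first hybridization (x axis) and in the second (y axis), subunits dark and assembly factors orange, with the dotted line of equality. Both axes stop at -1 and 1, so Cox7a1 (-2.82 and -3.37) and Cox6b2 (1.80 and 2.97) lie outside; Cox7b2, a dim probe set, stands far off the line at 0.59 and -0.18.

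The comparison of EphB2 Medium with EphB2 Low, which shares its Low arrays with the one above, gave 6 called members (6.52%, against 24.7% of all genes; 14.6% higher and 10.1% lower). Apart from Cox7a1 and Cox6b2 these were 4 assembly factors: Ndufaf6 at 0.59 ± 0.11 (limma adjusted p = 0.016), Ndufaf7 at 0.54 ± 0.13 (0.0307), Ndufaf4 at 0.43 ± 0.11 (0.0356) and Ndufaf5 at 0.43 ± 0.12 (0.044). Their median was 0.43 over the 8 factors, and that of the subunits was -0.07 (all genes -0.01), with 67 of 84 below 0 (50.6% of all genes). Ndufaf4 and Ndufaf5 lost the call whichever array was left out and with median centring, Ndufaf5 also with quantile normalization, Ndufaf6 without either Medium array or EphB2 Low replicate 2, and Ndufaf7 without either Medium or either Low array (adjusted p up to 0.161, 0.18, 0.084 and 0.14). With the hybridization as a block Ndufaf2 passed too (0.48, limma adjusted p = 0.0268; 0.0736 without the block). Leaving out any 1 array lowered the count of members, and that over all genes as well. With the trend option 10 members passed.

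Between EphB2 High and EphB2 Medium, Cox7a1 was the 1 member called (1.09%, against 1.36% of all genes; 0.214% higher and 1.15% lower). Of the 8 assembly factors limma called 0 (0 at an unadjusted p below 0.05), and their differences ran from -0.15 to 0.22 with a median of 0.11. Subunits had a median of -0.044 (all genes 0.03; -0.0682 without EphB2 Medium replicate 2, -0.0186 without EphB2 Medium replicate 1 and -0.0241 without EphB2 High replicate 2), and 69 of 84 were below 0 (45.0% of all genes). Cycs at -0.20 ± 0.11 and Sdhb at -0.16 ± 0.11 were below 0 without passing. The call of Cox7a1 was lost without either High or either Medium array, and with any 1 array left out fewer of all genes passed too.

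The Lgr5 arrays give no test, having 1 array per group, and the sort marker and the hybridization cannot be told apart where they differ from the EphB2 arrays. Of 92 members 5 differed by more than 1.5-fold (17.7% of all genes did), 2 of them higher in Lgr5 High (6.95% of all genes) and 3 lower (10.8%). Cox7a1 was at 8.68 in Lgr5 High and 11.28 in Lgr5 Low (6.06-fold lower). Cox6b2 was at 11.13 and 9.81 (2.50-fold higher), and the dim Cox6a2 at 6.29 and 6.97 (1.60-fold lower). The other two were very dim: Ndufb4 at 4.55 and 3.72, the only probe set that names it alone, and Cox7b2, lower by 0.67. With a limit of 2-fold only Cox7a1 and Cox6b2 remained. Subunits had a median difference of -0.14 (all genes -0.05), which was -0.05 when the 8 arrays were quantile normalized again (all genes 0.04). As deposited, 72 of 84 subunits were below 0 (55.6% of all genes). Of non-control probe sets, 1.599% lay above 13 on Lgr5 High and 1.885% on Lgr5 Low. In sign, 74 of 84 subunits ran as in the EphB2 sort (70.8% of all genes). Assembly factors were close to level here, with a median of 0.07 and a range from -0.37 to 0.12, and 6 of 8 had the sign of the EphB2 sort. Ndufaf6 read 9.92 and 9.81, Ndufaf5 10.56 and 10.44, and Ndufaf7 10.68 and 10.62, differences of 0.06 to 0.12 where the EphB2 sort gave 0.62 to 0.77. Enterocyte markers averaged 9.82 in Lgr5 High and 13.2 in Lgr5 Low, and 11.3 and 11.4 on EphB2 High against 13.9 and 14.0 on EphB2 Low. Cycling genes had a median difference of 0.29 in the Lgr5 pair (1.59 in the EphB2 sort) and Paneth cell genes one of -0.53 (0.58). Their part in the difference between the sorts was not tested.

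**Figure D5:**
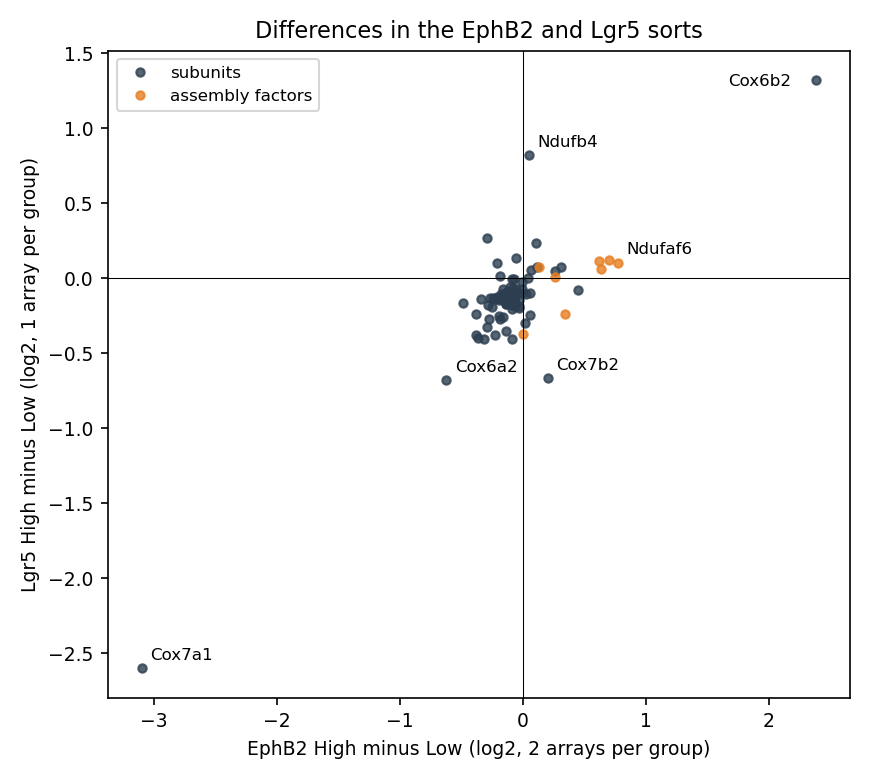
Difference between High and Low (log2) of each member in the EphB2 sort (x axis, 2 arrays per group) and in the Lgr5 sort (y axis, 1 array per group), subunits dark and assembly factors orange. Cox7a1 (-3.09 and -2.60) and Cox6b2 (2.38 and 1.32) lie far out in both sorts, while the assembly factors spread along the x axis and stay between -0.37 and 0.12 on the y axis.

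Genes that serve the same machinery were read from lists chosen with earlier results of these data known, between EphB2 High and Low. Of 38 measured assembly factors of other kinds 7 rose and 5 fell (median 0.09), shares near the 22.0% and 15.3% of all genes, so the genes named here are single values and not a result about the list. Bcs1l, which inserts the Rieske protein into complex III, rose by 0.93 ± 0.12 (limma adjusted p = 0.00256), Nubpl, which supplies iron-sulfur clusters to complex I, by 0.93 ± 0.15, and Cox18, which inserts a complex IV subunit into the membrane, by 0.79 ± 0.13. Sco1, a copper chaperone of complex IV, fell by 0.69 (SE 0.12), a call lost without EphB2 High replicate 2 (limma adjusted p = 0.0518). Of 11 genes of iron-sulfur cluster assembly 3 rose and 0 fell, again near the 22.0% of all genes that rose: Lyrm4 by 0.72 ± 0.14, the co-chaperone Hscb by 0.63 ± 0.13 and the chaperone Hspa9 by 0.43 ± 0.11. Without EphB2 High replicate 2 these 3 calls were lost, and that of Hspa9 also without EphB2 High replicate 1 or either Low array (limma adjusted p up to 0.0709, 0.0705 and 0.112).

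Regulators of mitochondrial gene expression gave the largest differences of these lists. Of 21 genes 10 rose and 3 fell, against 22.0% and 15.3% of all genes, with a median of 0.57. Ppargc1a, the coactivator PGC-1 alpha, read 11.21 and 11.13 on Low, 10.43 and 10.21 on Medium, and 9.24 and 9.02 on High. It fell by 2.04 (SE 0.14, 4.11-fold, limma adjusted p = 0.000465), and Esrra, the nuclear receptor ERR alpha that it activates, fell by 1.07 (SE 0.12). In the other direction Pprc1, a related coactivator, read 9.86 and 9.37 on Low, 10.95 and 10.96 on Medium, and 11.52 and 11.36 on High. It rose by 1.83 ± 0.18 (3.55-fold, limma adjusted p = 0.00127), and Twnk, the helicase of mitochondrial DNA, by 1.41 ± 0.15. Low was thus highest for Ppargc1a and lowest for Pprc1, with no overlap of groups, while Ppargc1b, the other coactivator of this family, did not pass (-0.31 ± 0.12, limma adjusted p = 0.106). The calls of Ppargc1a, Esrra, Pprc1 and Twnk held under all 12 alternatives. In the Lgr5 pair 2 of the 21 genes differed by more than 1.5-fold, both lower in Lgr5 High (10.8% of all genes were). These were Esrra, lower by 0.96, and Ppargc1b, lower by 0.69. Ppargc1a was lower by 0.38, with Pprc1 higher by 0.18 and Twnk by 0.25.

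Ubiquinone, which links complexes I and II to complex III, depends on the Coq proteins, most of which serve its synthesis. Of 12 genes on this list 2 rose and 3 fell (median 0.09), where 22.0% of all genes rose and 15.3% fell. Coq2, which joins the ring to its tail, rose by 0.88 ± 0.11, and Coq8b fell by 0.54 (SE 0.14). Coq10b and Coq10a, which are not enzymes of ubiquinone synthesis, fell by 1.08 (SE 0.11) and 0.76 (SE 0.16). The calls of Coq2 and Coq10b held under all 12 alternatives. That of Coq10a was lost without EphB2 High replicate 1 or EphB2 Low replicate 2 and as the mean of its probe sets (limma adjusted p up to 0.0732), and that of Coq8b without either High array or EphB2 Low replicate 2 (up to 0.117). Of 8 enzymes that feed electrons to ubiquinone by other routes 1 rose and 3 fell (22.0% and 15.3% of all genes). Dhodh, of pyrimidine synthesis, rose by 1.35 ± 0.16 (limma adjusted p = 0.0019), while Chdh, which oxidises choline, fell by 0.78 (SE 0.13), Sqor, which oxidises sulfide, by 0.53 (SE 0.12) and Gpd2, of the glycerol phosphate shuttle, by 0.52 (SE 0.12). The call of Gpd2 was lost without EphB2 High replicate 2 or EphB2 Low replicate 2, and that of Sqor also without EphB2 High replicate 1 (limma adjusted p up to 0.108 and 0.11). Of the 13 subunits encoded by mitochondrial DNA only ND5 was measured here (-0.24, limma adjusted p = 0.307).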

How the data were processed

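Per the submitters' processing notes, RMA made the deposited log2 values (background correction, quantile normalization and summary of a probe set's probes). The sources used here name no RMA version and leave unstated if all 8 arrays went through it jointly. Of 45101 probe sets, 64 were controls, 34945 named 1 gene through the platform annotation, 932 several and 9160 none.

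Members, gene lists and the rule for named genes (per complex all called members, or the 4 of smallest p in each direction, the isoform groups and Cycs, up to 2 per direction past 1.5-fold in the Lgr5 pair, and up to 4 called genes of smallest p per related list) were chosen with earlier results of these data known. limma 3.58.1 in R 4.3.3 (lmFit, contrasts.fit, eBayes, 2-sided) was fitted to group means of the 6 EphB2 arrays, leaving 3 residual degrees of freedom, over 18193 genes with Benjamini-Hochberg adjustment. The fit was tested on simulated data. No dim gene was removed: the filter used as an alternative, a group mean above 7.89, passed 76 of 84 subunits, 8 of 8 assembly factors and 2 of 8 tissue isoforms. Errors after ± are limma's standard errors. The number of arrays limits the precision.

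Among the EphB2 arrays, replicate numbers mark a shared hybridization in the labels and so pair the arrays. Deviations from group means of same-numbered arrays correlated across genes (High with Medium 0.45, Medium with Low 0.21, High with Low 0.13). The alternatives were this number as a block, each array left out, quantile normalization again, median centring, the dim filter, the mean of a gene's probe sets and an intensity trend in eBayes.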

Additional observations from a re-analysis of the deposited data

Results flagged for a closer look

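A pair of members that rose between EphB2 Low and High had the opposite sign in the Lgr5 pair, where each group has 1 array. Ndufb1 was higher in EphB2 High by 0.49 and 0.41 within the hybridizations and differed by -0.0801 between Lgr5 High and Lgr5 Low. Ndufaf4 was higher by 0.40 and 0.29 in the EphB2 sort and differed by -0.24 in the Lgr5 pair. Neither difference between the sorts was tested.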

How the results depend on the processing

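No named call changed sign under any alternative. With any 1 array left out, fewer of all genes passed in each comparison than with all arrays, as well as fewer members in most. Leaving out 1 array gave 4 to 8 called members between EphB2 High and Low (13 with all arrays), 1 to 4 between Medium and Low (6) and 0 to 1 between High and Medium (1). The intensity trend gave 27, 10 and 1. With the hybridization as a block the counts were 13, 7 and 1, Ndufaf2 being the gain between Medium and Low, and no other call of a member changed. The subunit median between High and Low was -0.16 with median centring and -0.16 as the mean of all probe sets (-0.11 as reported). Between High and Medium it was -0.0303 with quantile normalization, -0.068 with median centring, -0.057 as the mean of all probe sets and -0.0682 to -0.0186 with 1 array left out (-0.044 as reported). In the Lgr5 pair it was -0.0466 with quantile normalization, and a 2-fold limit left 2 of 5 members. The causes were not tested. Of called members between High and Low, those higher and lower numbered 7 and 6 as reported, 7 and 2 with quantile normalization, and 7 and 20 with the trend. Most subunits are read at the bright end of the arrays: 50 of 84 had a mean above 13, as did 2.29% of all genes, and 2 arrays per group limit the precision.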

Other observations

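Many subunits had further probe sets, and these gave a second reading of the same genes. For 50 subunits 90 further probe sets were measured. Of these, 72 were lower in EphB2 High than in Low, 78 had the sign of the probe set reported above, and 59 showed a difference of larger size. Their median was -0.14, against -0.10 for the reported probe sets of the same 50 subunits. With a limit of 11 on the mean level, picked after the values were seen, the 33 dimmer ones had a median of -0.40 (from -1.13 to 1.05, 26 below 0) and the 57 brighter ones a median of -0.13. Cycs, for example, had a further probe set at 6.39 and 6.84 on Low and 5.64 and 5.33 on High, and Cox5b one at 8.85 and 8.70 on Low and 7.99 and 7.79 on High. Atp5g1 was the exception of largest size, with a further probe set at 6.46 and 5.81 on Low and 7.06 and 7.30 on High. Which transcripts these dimmer probe sets read, and what part signal level has in the size of a difference, was not tested.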
